A study of Mus musculus with 9 samples.

Results

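Autotaxin, the lysophosphatidic acid (LPA) receptors and the lipid phosphate phosphatases were described as a set of 9 mouse genes, of 55335 genes listed in the files. The members were taken by symbol: Enpp2, which encodes autotaxin, the receptor genes Lpar1, Lpar2, Lpar3, Lpar4 and Lpar6, and the phosphatase genes Plpp1, Plpp2 and Plpp3. The genes are named by pathway, but the set was chosen by the low values of Enpp2 with both hairpins, which were known when it was proposed. Differences of the members from the control are therefore given as a description, with a standard error (SE) from the model and no p-value. Counts of calls over the set are printed with nothing read from them. For the members a test is read only for the difference between the hairpins. That difference compares no control library, though the filter, scaling and spread came from all 9 samples. Of the 9 genes, 7 passed the filter on low counts, and Lpar3 and Lpar4 did not.

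RNA was sequenced from D2A1-d, a mouse breast carcinoma line whose genotype is labelled WT in the controls and Med1 Knockdown in the others. Of the 9 samples, 3 carried a non-targeting control hairpin (NTC), 3 the hairpin shMed1 #2 and 3 the hairpin shMed1 #4. The labels say that cells were transduced, call the samples biological replicates and give no added treatment (N/A), and no source used here names separate transductions or cultures, so the spread between samples may be technical. Med1 is a gene of Mediator, the complex that carries signals of transcription factors to RNA polymerase II, and the study asked what its knockdown does to transcripts of these cells.

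Autotaxin is a secreted lysophospholipase D that makes LPA from lysophosphatidylcholine outside the cell. LPA acts on G protein-coupled receptors of 2 families. Those encoded by Lpar1, Lpar2 and Lpar3 belong to the EDG family, together with receptors of sphingosine 1-phosphate, and those encoded by Lpar4 and Lpar6 belong to a family related to purinergic receptors. Lipid phosphate phosphatases of the Plpp family, which face the outside of the cell, remove the phosphate from LPA and end its signal. In breast and other tumours the pathway is known for its part in migration, invasion and survival.

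Library totals ran from 8123918 to 8879982 counts, and 13611 genes had enough counts to be tested. A count of 3 was worth 0.345 to 0.364 CPM, the count relative to the library total after TMM scaling. Med1 averaged 84.3 CPM in NTC, 24.0 with shMed1 #2 and 25.7 with shMed1 #4, so the targeted gene was low in both groups labelled as knockdown. Of 10 markers listed for carcinoma and mammary epithelial cells, 3 passed the filter. In NTC, shMed1 #2 and shMed1 #4 the mesenchymal gene Vim averaged 1872, 2778 and 2444 CPM, and the epithelial keratin genes averaged 50.7, 18.8 and 43.7 CPM (Krt18) and 6.49, 1.92 and 3.48 CPM (Krt8). In edgeR's test Krt18 fell by 1.43 and 0.21 on the log2 scale (adjusted p = 2.68e-25 and 0.0240) and Krt8 by 1.74 and 0.89 (adjusted p = 3.10e-09 and 0.000629), and their part in the results below was not tested. The epithelial genes Epcam, Cldn3 and Krt5 had 0 counts in all libraries and Cdh1 at most 2.

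Per length of exon, the order of the genes in NTC ran from Plpp2 to Lpar2, and the place of Enpp2 in it was lower with each hairpin. The scale here is RPKM, the CPM value per kilobase of annotated exon, which allows levels of different genes to be compared. In NTC, Plpp2 stood at 37.3 ± 2.00 RPKM (SD, n = 3), Plpp1 at 22.5 ± 2.37, Lpar1 at 14.7 ± 0.437, Enpp2 at 9.50 ± 0.680, Plpp3 at 5.61 ± 0.355, Lpar6 at 4.36 ± 0.250 and Lpar2 at 3.20 ± 0.404. The ranges of neighbours in this order did not overlap. Enpp2 was number 4 of the 7 in NTC and number 7 with each hairpin, at 1.37 ± 0.241 RPKM with shMed1 #2 and 1.68 ± 0.137 with shMed1 #4. The other 6 genes kept their order among themselves. With shMed1 #4 the ranges of Plpp3 (4.84 to 6.34 RPKM) and Lpar6 (4.50 to 5.20) overlapped, so these neighbours did not differ beyond their spread.

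**Figure D1:**
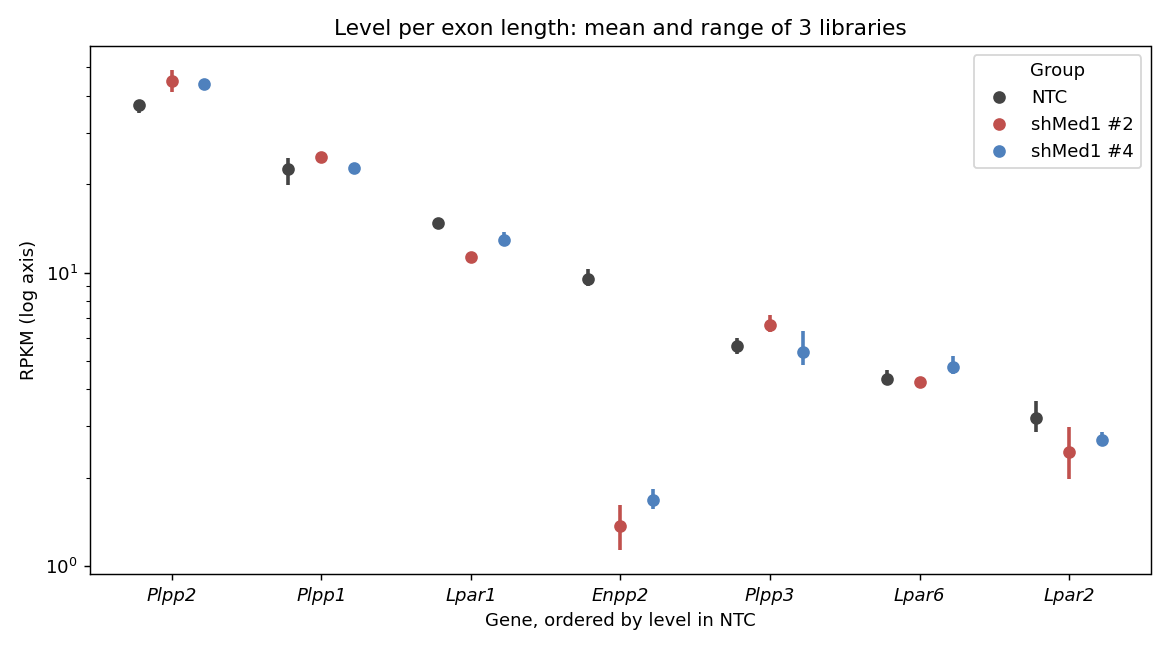
Level of each detected gene per kilobase of exon (RPKM, log axis) in NTC, shMed1 #2 and shMed1 #4; points are means and bars the range of 3 libraries. Enpp2 stands in place 4 in NTC (9.50 RPKM) and last with shMed1 #2 (1.37) and shMed1 #4 (1.68).

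Enpp2, the source of extracellular LPA in the set, was far lower with both hairpins. Enpp2 (ENSMUSG00000022425.16, protein-coding) spans 54838901 to 54952892 on chromosome 15 of GRCm38, minus strand, and had 438, 433 and 513 counts in the NTC libraries. It had 57, 68 and 81 counts with shMed1 #2 and 91, 79 and 78 with shMed1 #4. Scaled, these were 53.1, 52.2 and 59.4 CPM in NTC, 6.55, 7.90 and 9.33 with shMed1 #2, and 10.6, 9.51 and 9.04 with shMed1 #4. All 6 knockdown libraries lay below all 3 NTC libraries, and the 2 hairpin groups overlapped each other. The log2 difference from NTC was -2.79 (SE 0.108) with shMed1 #2 and -2.50 (SE 0.104) with shMed1 #4, which left 14.5% and 17.7% of the NTC level. Ranked from the lowest, Enpp2 was gene 58 of 13611 with shMed1 #2. Between the hairpins Enpp2 differed by 0.29 on the log2 scale (shMed1 #4 minus shMed1 #2, 95% interval 0.00 to 0.58), which did not pass edgeR's quasi-likelihood test (adjusted p = 0.137). Its exons share 345 bases with Gm26684, a noncoding RNA gene on the opposite strand, which averaged 0.0386 CPM in NTC.

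In bulk RNA, fewer cells that express a gene and less RNA per cell cannot be told apart. Adipocytes and fibroblasts are known to make autotaxin. Of the 5 adipocyte markers, none passed the filter. Adipoq had 0 counts in all libraries, none of the 5 had more than 3 counts in any library, and their summed level was 0.121 to 0.242 CPM in NTC, 0 to 0.232 with shMed1 #2 and 0 to 0.348 with shMed1 #4. Of the 6 fibroblast markers, 4 passed the filter. Lum had 0 counts in all libraries and Dcn at most 1 count in any library. The summed level of the 6 was 173 to 188 CPM in NTC, 80.9 to 89.0 with shMed1 #2 and 114 to 126 with shMed1 #4. In edgeR's test all 4 fell with shMed1 #2 and 2 of them, Pdgfra and Pdgfrb, with shMed1 #4, where 21.9% and 14.1% of all genes were called lower. With shMed1 #4 Col1a1 (-0.24, adjusted p = 0.127) and Col1a2 (-0.62, adjusted p = 0.0654) were not called. Between the hairpins 3 of the 4 were called higher with shMed1 #4, against 12.9% of all genes. These were Col1a1 (1.37 on the log2 scale), Col1a2 (0.83) and Pdgfrb (0.65), where Enpp2 was not called. The part of these markers in the difference of Enpp2 was not tested. Leukocyte markers summed to 16.8 to 19.7 CPM in NTC, 13.9 to 17.1 with shMed1 #2 and 14.3 to 15.7 with shMed1 #4, with Adgre1, Itgam and Cd3e at 0 counts. The 5 endothelial markers summed to at most 1.04 CPM in any library, and Emcn had 0 counts.

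**Figure D2:**
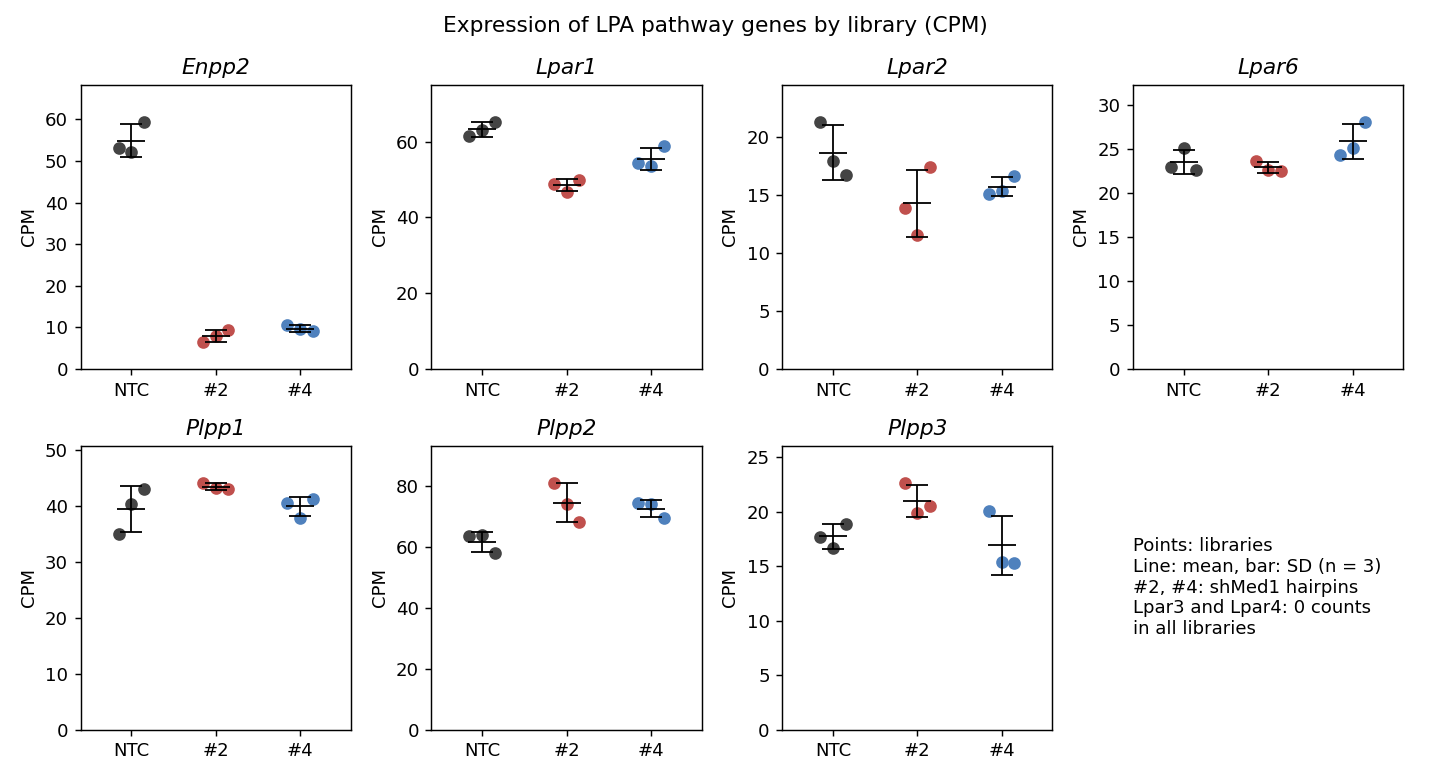
CPM of the 7 detected genes in each of the 9 libraries (points), with the mean (line) and SD (bar) of 3 libraries per group. Enpp2 lies at 52.2 to 59.4 CPM in NTC and at 6.55 to 10.6 in the knockdown libraries, while the other genes stay within a narrower range.

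Sequence before the start sites was available for 7 of the 9 members, in RefSeq windows of 300 bases on GRCm38.p6 that run from 250 bases before to 50 bases after the start. No window was listed for Enpp2 and Plpp1. The windows of the 2 receptor genes lower than NTC with each hairpin (Lpar1 and Lpar2), of the receptor gene near its NTC level (Lpar6) and of the phosphatase gene higher with each hairpin (Plpp2) are shown so that their makeup can be read beside the values. They run 5′ to 3′ on the strand of the gene, and capitals mark matches to the motifs named below.
Lpar1 (chr4:58553442-58553741, minus strand): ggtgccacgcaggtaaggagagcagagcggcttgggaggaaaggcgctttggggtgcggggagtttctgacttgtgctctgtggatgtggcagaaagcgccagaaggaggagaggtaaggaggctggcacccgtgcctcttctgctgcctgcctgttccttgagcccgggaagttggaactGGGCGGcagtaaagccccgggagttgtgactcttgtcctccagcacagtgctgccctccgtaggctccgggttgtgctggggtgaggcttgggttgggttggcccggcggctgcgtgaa
Lpar2 (chr8:69822315-69822614, plus strand): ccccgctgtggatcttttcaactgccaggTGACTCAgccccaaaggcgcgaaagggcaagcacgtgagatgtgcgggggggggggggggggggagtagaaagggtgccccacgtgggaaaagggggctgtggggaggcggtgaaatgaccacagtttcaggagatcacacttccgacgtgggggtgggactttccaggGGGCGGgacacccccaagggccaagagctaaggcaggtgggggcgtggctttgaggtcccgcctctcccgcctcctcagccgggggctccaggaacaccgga
Lpar6 (chr14:73237641-73237940, plus strand): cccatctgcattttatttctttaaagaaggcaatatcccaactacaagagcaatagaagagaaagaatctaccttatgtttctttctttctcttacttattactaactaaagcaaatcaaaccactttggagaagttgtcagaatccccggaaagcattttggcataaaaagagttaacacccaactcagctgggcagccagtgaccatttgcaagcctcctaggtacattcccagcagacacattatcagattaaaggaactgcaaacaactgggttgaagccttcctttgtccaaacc
Plpp2 (chr10:79533738-79534037, minus strand): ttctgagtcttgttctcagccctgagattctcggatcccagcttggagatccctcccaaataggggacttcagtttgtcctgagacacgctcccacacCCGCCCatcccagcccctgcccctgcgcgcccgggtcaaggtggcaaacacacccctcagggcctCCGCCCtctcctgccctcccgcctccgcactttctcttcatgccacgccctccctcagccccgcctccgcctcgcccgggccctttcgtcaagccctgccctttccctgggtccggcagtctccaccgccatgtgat

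On both strands of the windows 6 short motifs were searched: AGGTCA (a nuclear receptor site), the interferon-stimulated response element, TTCNNNGAA (STAT site), TGANTCA (AP-1 site), TATAAA (the core promoter element) and GGGCGG (the site of Sp family factors). No match overlapped another in the windows printed. GGGCGG, or its reverse complement, was found in 7 of the 9 windows of the members, of which 2 of Lpar1 share bases, and in 35.7% of all 32851 windows of that length. Lpar1 had 1 such match in the window shown, Lpar2 had 1, Plpp2 had 2, and Lpar6 had none. TGANTCA was found in the Lpar2 window and in 7.81% of all windows. AGGTCA was in none of the 9 windows and in 16.3% of all, the interferon-stimulated response element in none of the 9 and in 3.44% of all, and TTCNNNGAA in none of the 9 and in 8.30% of all. TATAAA was in the Lpar4 window and in 13.6% of all. The window of Lpar6 held 40.0% G and C, and those shown of Lpar1, Lpar2 and Plpp2 63.0%, 66.0% and 65.3%. Further windows listed for Lpar1, not shown, held 71.7% and 43.7%, and the latter had no GGGCGG match. A match is a run of letters, not a shown site.

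Among the receptors, Lpar1 was the most abundant and was modestly lower with each hairpin. Lpar1, the most widely expressed receptor of LPA, lies on the minus strand of chromosome 4 (ENSMUSG00000038668.14, 58435255 to 58553898). It stood at 61.5, 63.0 and 65.2 CPM in NTC, 48.9, 46.7 and 49.8 with shMed1 #2, and 54.2, 53.4 and 58.8 with shMed1 #4. The 3 groups did not overlap, with NTC highest and shMed1 #2 lowest. The log2 difference of Lpar1 from NTC was -0.38 (SE 0.0668) with shMed1 #2 and -0.19 (SE 0.0656) with shMed1 #4. Between the hairpins it was 0.20 higher with shMed1 #4 (SE 0.0680, edgeR adjusted p = 0.0237, higher in 3 of 3 libraries). DESeq2 did not make that call (adjusted p = 0.101), nor did edgeR once shMed1 #2 replicate 2 (0.111) or shMed1 #4 replicate 3 (0.145) was left out.

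Lpar2 and Lpar6 were less abundant, and only Lpar2 was lower than NTC on average with both hairpins. Lpar2, a receptor often raised in tumours, lies on the plus strand of chromosome 8 (ENSMUSG00000031861.16, 69822429 to 69831102, by the M21 entry of an earlier version). It stood at 21.3, 18.0 and 16.8 CPM in NTC, 13.9, 11.6 and 17.4 with shMed1 #2, and 15.1, 15.4 and 16.7 with shMed1 #4. One library of shMed1 #2 lay within the NTC range, and the highest of shMed1 #4 was just under the lowest of NTC. The log2 differences of Lpar2 were -0.38 (SE 0.121) and -0.25 (SE 0.120). Lpar6 (ENSMUSG00000033446.7, plus strand of chromosome 14, 73237895 to 73243294) encodes a receptor known from inherited hair loss. It stood at 22.9, 25.1 and 22.6 CPM in NTC, 23.6, 22.6 and 22.5 with shMed1 #2, and 24.3, 25.2 and 28.1 with shMed1 #4, and both knockdown groups overlapped NTC. The log2 differences of Lpar6 were -0.04 (SE 0.0978) and 0.14 (SE 0.0961). Between the hairpins neither gene passed the test: Lpar2 differed by 0.14 (95% interval -0.11 to 0.39, adjusted p = 0.467) and Lpar6 by 0.18 (-0.02 to 0.37, adjusted p = 0.181). The single exon of Lpar6, 5400 bases, lies wholly within the body of Rb1 on the opposite strand, and 408 of its bases are also exon of Rb1. Because no source used here states whether counting used strand, reads of the 2 genes cannot be told apart there. Rb1 itself averaged 45.5 CPM in NTC, 33.9 with shMed1 #2 (log2 fold change -0.42, edgeR adjusted p = 5.09e-06) and 40.4 with shMed1 #4 (-0.17, adjusted p = 0.0897).

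Lpar3 and Lpar4 were not detected. Both had 0 counts in all 9 libraries, which allows a level of up to 0.364 CPM (3 counts) in a library, for counting error only. Lpar5, another LPA receptor gene outside the set, had at most 1 count in a library. Per length of exon, the summed level of the receptor genes was 22.2 to 22.4 RPKM in NTC, 17.1 to 18.8 with shMed1 #2 and 19.7 to 21.8 with shMed1 #4, and the groups did not overlap. Lpar1 made up 66.1% ± 1.97 (SD, n = 3) of that sum in NTC, 62.8% ± 0.934 with shMed1 #2 and 63.4% ± 0.597 with shMed1 #4. Lpar6 made up 19.5% ± 1.03, 23.6% ± 1.25 and 23.4% ± 0.546 in the same order, and its share in each knockdown library was above that of every NTC library. The share of Lpar2 was 14.4% ± 1.85, 13.6% ± 2.15 and 13.2% ± 0.128.

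Of the phosphatase genes, whose products end LPA signals, Plpp2 was higher with each hairpin. Plpp2 (ENSMUSG00000052151.12, minus strand of chromosome 10, 79526430 to 79533796), which encodes a membrane enzyme of that family, stood at 63.5, 63.7 and 57.9 CPM in NTC, 81.04, 74.2 and 68.2 with shMed1 #2, and 74.4, 74.0 and 69.3 with shMed1 #4. All knockdown libraries lay above all NTC libraries. The log2 difference of Plpp2 was 0.27 (SE 0.0639) with shMed1 #2 and 0.23 (SE 0.0643) with shMed1 #4, or 1.21-fold and 1.18-fold. Between the hairpins it was -0.04 (95% interval -0.16 to 0.09, edgeR adjusted p = 0.714).

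Plpp1 stayed near its NTC level, and Plpp3 differed between the hairpins. Plpp1 (ENSMUSG00000021759.14, plus strand of chromosome 13, 112800792 to 112867894) stood at 34.9, 40.2 and 43.1 CPM in NTC, 44.1, 43.2 and 43.0 with shMed1 #2, and 40.5, 37.9 and 41.3 with shMed1 #4. NTC spanned the widest range, and both knockdown groups overlapped it. The log2 differences of Plpp1 were 0.14 (SE 0.0771) and 0.02 (SE 0.0784), and between the hairpins -0.12 (95% interval -0.28 to 0.03, adjusted p = 0.255 in edgeR). Its exons, 1750 bases in all, share 452 bases with Mtrex on the opposite strand, where reads of the 2 genes cannot be told apart without the strand setting. Mtrex averaged 134 CPM in NTC and 151 with shMed1 #2 (log2 fold change 0.18, edgeR adjusted p = 0.0016). With shMed1 #4 it averaged 136 CPM (0.02, adjusted p = 0.794). Plpp3 (ENSMUSG00000028517.8, plus strand of chromosome 4, 105157347 to 105232764), whose product is needed for early vessel development in mice, stood at 17.7, 16.6 and 18.9 CPM in NTC. The shMed1 #2 libraries had 22.6, 19.9 and 20.5 CPM, and those of shMed1 #4 had 20.02, 15.4 and 15.3. The shMed1 #2 libraries were above all NTC libraries, and those of shMed1 #4 overlapped both other groups. The log2 difference of Plpp3 was 0.24 (SE 0.110) with shMed1 #2 and -0.07 (SE 0.115) with shMed1 #4. Between the hairpins Plpp3 fell by 0.31 on the log2 scale with shMed1 #4 relative to shMed1 #2 (SE 0.111, edgeR adjusted p = 0.0272). DESeq2 did not make that call (adjusted p = 0.120), nor did edgeR once shMed1 #2 replicate 1 (0.132), shMed1 #4 replicate 2 (0.127) or shMed1 #4 replicate 3 (0.146) was left out. The summed level of the 3 phosphatase genes per length of exon was 63.9 to 66.8 RPKM in NTC, 72.3 to 81.4 with shMed1 #2 and 70.3 to 74.4 with shMed1 #4, and each knockdown group lay above NTC. Plpp2 made up most of that sum: 57.0% ± 3.39 (SD, n = 3) in NTC, 58.8% ± 1.61 with shMed1 #2 and 60.9% ± 1.66 with shMed1 #4.

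**Figure D3:**
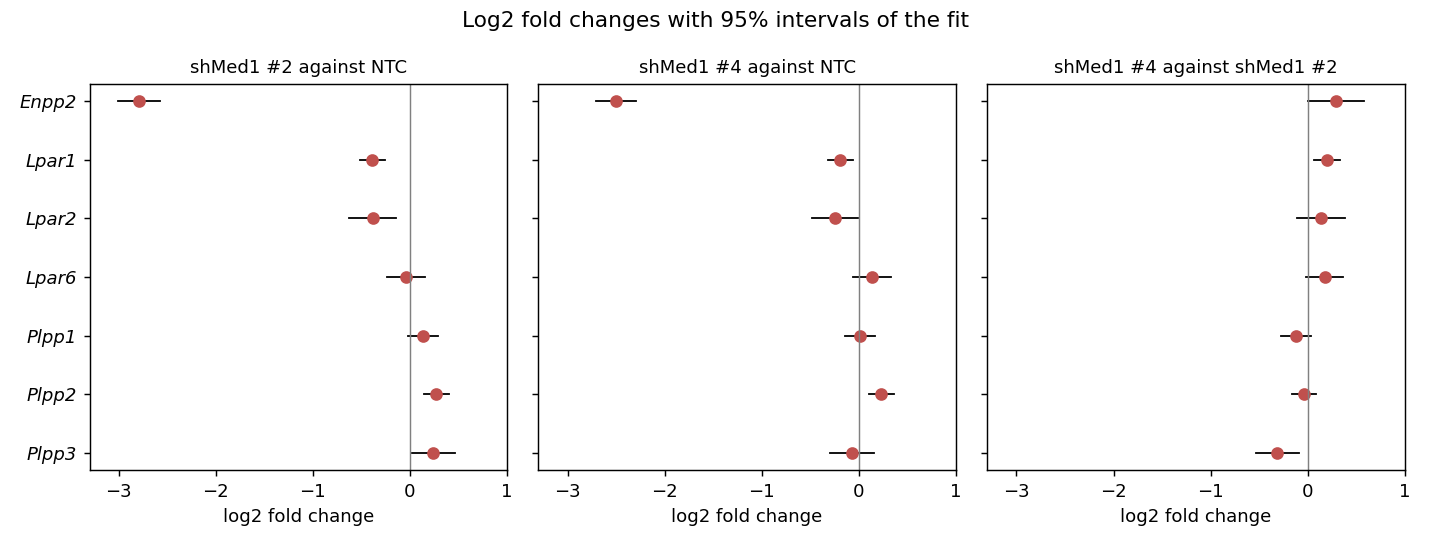
Log2 fold changes of the 7 detected genes (points) with 95% intervals of the fit (bars) for each hairpin against NTC and for shMed1 #4 against shMed1 #2. Enpp2 lies at -2.79 and -2.50 against NTC, the other genes lie between -0.38 and 0.27, and between the hairpins Lpar1 (0.20) and Plpp3 (-0.31) have the lowest adjusted p.

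Counted over the set, 4 of the 7 members that passed the filter were called with shMed1 #2 at an adjusted p under 0.05, against 43.7% of all genes tested. Of these 1 was higher (Plpp2), against 21.8% of all genes, and 3 were lower (Enpp2, Lpar1 and Lpar2), against 21.9%. With shMed1 #4 the count was 3, against 28.2% of all genes, 1 higher (Plpp2, against 14.0%) and 2 lower (Enpp2 and Lpar1, against 14.1%). Enpp2 and Lpar1 were called lower with both hairpins, against 10.1% of all genes, and Plpp2 higher with both, against 10.4%. Libraries of the groups did not overlap for 4 members with shMed1 #2 (51.5% of all genes), 2 higher (25.7%) and 2 lower (25.8%). With shMed1 #4 they did not overlap for 4 members (38.9% of all genes), 1 higher (19.3%) and 3 lower (19.6%). Both comparisons use the same NTC libraries and were in view when the set was chosen, so nothing is read from these counts. The median log2 fold change of the 7 was -0.04 and -0.07, beside 0.00 and 0.00 over all tested genes. The call of Lpar2 with shMed1 #2 was absent in DESeq2 and with NTC replicate 1 or shMed1 #2 replicate 2 left out. The call of Lpar1 with shMed1 #4 was absent in DESeq2 and with NTC replicate 2 or 3 or shMed1 #4 replicate 1 or 2 left out, and Plpp1 was called higher with shMed1 #2 once NTC replicate 3 was left out. Between the hairpins 2 of the 7 were called, against 26.0% of all genes, which is near the background: Lpar1 was higher with shMed1 #4 (12.9% of all genes) and Plpp3 lower (13.1%). There the libraries did not overlap for 3 members (37.5% of all genes), Lpar1 and Lpar6 higher (18.9%) and Plpp1 lower (18.6%).

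Other genes that make or use LPA inside and outside the cell moved in both directions. Of 22 tested genes among 27 enzymes of LPA and phosphatidate, 6 rose and 7 fell with shMed1 #2 (median log2 fold change 0.00), and 1 rose and 4 fell with shMed1 #4 (median -0.02). The share called was 59.1% and 22.7%, against the 43.7% and 28.2% of all genes. Pla2g7, which encodes a secreted phospholipase that cleaves platelet-activating factor, fell by 0.78 on the log2 scale with shMed1 #2 (SE 0.0950, edgeR adjusted p = 7.05e-11), from 37.0 to 21.5 CPM. With shMed1 #4 it fell by 0.26 (SE 0.0894, adjusted p = 0.0235), to 31.1 CPM. DESeq2 did not make the second call of Pla2g7 (adjusted p = 0.139), and edgeR did not with NTC replicate 3 (0.385), shMed1 #4 replicate 2 (0.0564) or shMed1 #4 replicate 3 (0.0772) left out. Gdpd1, which encodes an intracellular lysophospholipase D, fell by 0.59 and 0.43 (adjusted p = 2.35e-06 and 0.000737), from 25.4 CPM in NTC to 16.9 and 18.9. Gpam, which encodes a mitochondrial acyltransferase that makes LPA as a lipid precursor, rose by 0.44 and 0.34 (adjusted p = 1.77e-06 and 0.000408), from 32.7 to 44.3 and 41.4 CPM.

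Other members of the gene families were in part scarce, and some of those tested were called against NTC. Of the 6 other ENPP genes, Enpp4 and Enpp5 were tested, and Enpp1, Enpp3, Enpp6 and Enpp7 had at most 1 count in a library. Enpp5 averaged 27.8 CPM in NTC, 27.2 with shMed1 #2 and 22.8 with shMed1 #4. It passed edgeR's test with shMed1 #4 (log2 fold change -0.29, SE 0.0953, adjusted p = 0.0168) and not with shMed1 #2 (-0.03, adjusted p = 0.792). DESeq2 did not call Enpp5 with shMed1 #4 (adjusted p = 0.0873). Leaving out any of 4 libraries also ended the call: NTC replicate 2 (0.0555) or 3 (0.0619), or replicate 1 (0.0580) or 2 (0.120) of shMed1 #4. Of 12 other genes of the phosphatase families, 7 were tested. With shMed1 #2, 1 rose and 2 fell, and with shMed1 #4, 3 fell (medians 0.04 and -0.21). The share called was 42.9% in each comparison, against 43.7% and 28.2% of all genes. Lpin1, which encodes a phosphatidate phosphatase of lipid synthesis, fell by 1.62 (SE 0.127, adjusted p = 1.32e-18) and 0.99 (SE 0.117, adjusted p = 8.34e-11), from 27.2 CPM in NTC to 8.85 and 13.7. Plppr2, which encodes a phosphatase-related protein, fell with shMed1 #2 (-0.56, adjusted p = 1.38e-06) and had an adjusted p = 0.0839 with shMed1 #4 (-0.21), or 0.0333 with replicate 1 of shMed1 #4 left out.

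In the related sphingosine 1-phosphate pathway few receptor genes passed the filter, while most of the listed enzymes and transporters did. Of 12 other receptors of lysophospholipids, only S1pr2, a receptor of sphingosine 1-phosphate, passed the filter. It averaged 40.3 CPM in NTC, 44.1 with shMed1 #2 and 41.8 with shMed1 #4 (edgeR adjusted p = 0.178 and 0.676). Of 8 enzymes and transporters of sphingosine 1-phosphate, 7 were tested, and with each hairpin 1 rose and 1 fell (medians 0.02 and 0.05). That is 28.6% called in each comparison, beside 43.7% and 28.2% of all genes. Sphk2, a sphingosine kinase gene, fell by 0.22 and 0.26 (adjusted p = 0.0260 and 0.0128). DESeq2 called Sphk2 with neither hairpin (adjusted p = 0.126 and 0.0734). With shMed1 #2 the call also ended when the filter was dropped (adjusted p = 0.0528) or when NTC replicate 2 (0.0617) or 3 (0.0702) or shMed1 #2 replicate 3 (0.206) was left out, and with shMed1 #4 when its replicate 3 was (0.0553). Sgpp1, which encodes a phosphatase of sphingosine 1-phosphate, rose by 0.20 and 0.25 (adjusted p = 0.00873 and 0.00197), but the first call of Sgpp1 ended when only library size was used for scaling (adjusted p = 0.0511) or NTC replicate 2 was left out (0.0754).

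Among early genes that serum or LPA are known to induce, more were called higher than lower with each hairpin. Of 8 tested among 12 listed, 5 rose and 1 fell with shMed1 #2 (median 0.35), and 6 rose and 1 fell with shMed1 #4 (median 0.43), beside a median of 0.00 over all genes in each comparison. The share called was 75.0% and 87.5%, against 43.7% and 28.2% of all genes. With both hairpins 4 of the 8 rose, against 10.4% of all genes, and 1 fell, against 10.1%. The list was chosen with earlier results of these data known, so its shares and medians are a description only. Plaur, the urokinase receptor gene, rose by 1.21 (SE 0.0494, edgeR adjusted p = 3.74e-36) and 0.73 (SE 0.0509, adjusted p = 2.61e-21), from 93.0 CPM to 215 and 154. Egr1, an early transcription factor gene, was scarce, at 2.23 CPM in NTC, 0.770 with shMed1 #2 and 1.09 with shMed1 #4. It fell by 1.51 and 1.01 (adjusted p = 0.000612 and 0.0228). DESeq2 did not call Egr1 with shMed1 #4 (adjusted p = 0.148), and dropping NTC replicate 1 (0.0784) or 2 (0.0614), or replicate 1 (0.0673) or 2 (0.131) of shMed1 #4, ended the edgeR call. Ccn1, which encodes a matricellular protein, rose by 1.27 and 0.49 (adjusted p = 4.73e-13 and 2.60e-06), from 381 CPM to 917 and 535. What serum or LPA the cells met was not measured.

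**Figure D4:**
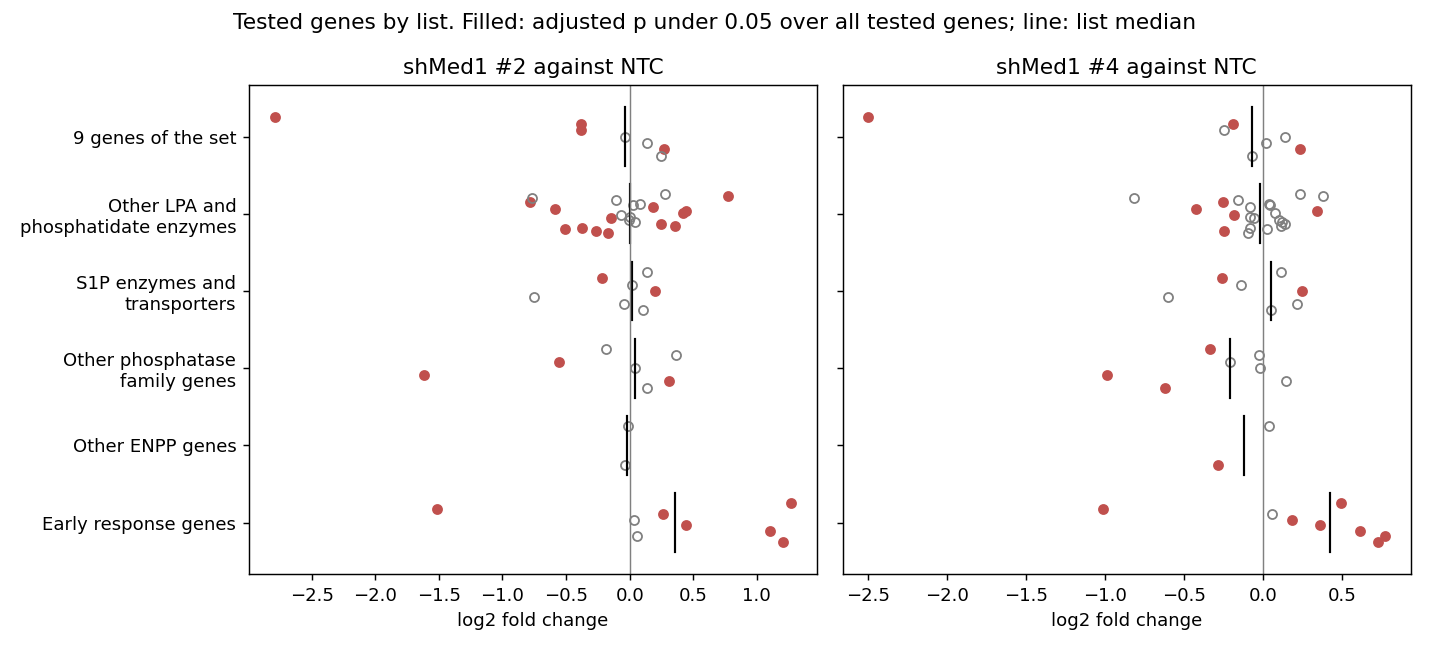
Log2 fold changes against NTC of the tested genes by list; filled points passed an adjusted p under 0.05 over all tested genes, open points did not, and lines mark list medians. Enpp2, at -2.79 and -2.50, lies apart on the left, and the early response genes have medians of 0.35 and 0.43.

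The genes whose profile over the 9 libraries lay nearest to that of Enpp2 were Rtp4, Pcdh19, Dhx40, Ifit1 and Gbp3. Nearness was the root mean square difference of log2 CPM, each gene taken relative to its own NTC mean, among 10501 genes with an assigned symbol and a mean of at least 1 log2 CPM. Rtp4, a receptor transporter gene induced by interferon, lay at a difference of 0.29 from Enpp2, with a Pearson correlation of 0.978 over the 9 samples. Pcdh19, a protocadherin gene, lay at 0.39 (r = 0.970), Dhx40, a putative RNA helicase gene, at 0.39 (r = 0.978), Ifit1, an interferon-induced gene, at 0.43 (r = 0.943), and Gbp3, an interferon-inducible GTPase gene, at 0.46 (r = 0.957). These genes share the libraries and their scaling with Enpp2. They were picked by nearness in these same libraries, so high correlations follow from the choice and nothing is read from them. They were scarcer than Enpp2 in counts, between 7.80 and 9.45 CPM in NTC, where Enpp2 averaged 54.9, and Ifit1 and Gbp3 have close paralogs, so their counts are uncertain where reads fit more than 1 copy. Dhx40 averaged 8.88 CPM in NTC, 1.54 with shMed1 #2 and 1.88 with shMed1 #4.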

How the data were processed

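The authors deposited raw counts per gene, 1 file for each of the 9 samples. Per the submitters' processing notes these come from STAR and HTSeq on mm10 (GRCm38). Versions, annotation release and strand setting were not given in the sources used here. Symbols, positions and exon lengths came from GENCODE M21: 54587 of 55335 identifiers matched including the version, 55154 ignoring it. Promoter windows came from RefSeq.

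Genes passing filterByExpr were scaled by TMM (factors 0.982 to 1.02) and tested by the quasi-likelihood method of edgeR 4.0.16 in R 4.3.3, in 1 robust fit of all 9 samples with 1 coefficient per group. P-values were adjusted by Benjamini-Hochberg over 13611 genes, with a threshold of 0.05, and log2 CPM used a prior count of 2. The procedure was tested on simulated data. The members and lists were chosen with earlier results of these data known. Named genes were the members, Med1, the 5 genes nearest to Enpp2 and, of each list, up to 3 called with both hairpins in 1 direction by mean size of change, filled up to 2 from those called with 1 hairpin. Marker genes, family genes named as scarce, Enpp4, S1pr2, Lpar5, Rb1, Mtrex and Gm26684 fall outside that rule and were named after their values were seen. Some results, among them those of 1 list, are not reported here.

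Within groups the libraries varied beyond sampling noise (chi-square over its degrees of freedom 1.55 to 2.53), so none was merged. The alternatives were RLE scaling, library size alone, no filter, at least 30 counts in every sample of a group, DESeq2 1.42.0, a fit of the 2 groups alone, a replicate block, and each library left out. Figures used matplotlib 3.10.9.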

Additional observations from a re-analysis of the deposited data

Results flagged for a closer look

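Of the named genes, 11 had effects of the hairpins that differed from each other in edgeR's quasi-likelihood test, and values are shMed1 #4 minus shMed1 #2 on the log2 scale. In the set itself these were Lpar1 (0.20, adjusted p = 0.0237) and Plpp3 (-0.31, adjusted p = 0.0272). Neither was called by DESeq2 (adjusted p = 0.101 and 0.120). Among the other genes Gbp3 (1.44, adjusted p = 0.00955), Lpin1 (0.63, adjusted p = 0.000397), Pla2g7 (0.53, adjusted p = 1.33e-05), Plppr2 (0.34, adjusted p = 0.00545) and Gna12 (0.25, adjusted p = 0.000929) were higher with shMed1 #4. Ccn1 (-0.78, adjusted p = 2.88e-09), Plaur (-0.48, adjusted p = 3.00e-14), Rock2 (-0.25, adjusted p = 1.35e-05) and Enpp5 (-0.25, adjusted p = 0.0411) were lower with shMed1 #4. The call of Gbp3 ended with shMed1 #4 replicate 1 left out (1.25, adjusted p = 0.0639). That of Plppr2 ended with shMed1 #2 replicate 2 (adjusted p = 0.0503) or shMed1 #4 replicate 1 (0.0786) left out. Enpp5 lost its call with library size alone (0.0700), with no filter (0.0697), in DESeq2 (0.138) and with replicate 1 (0.0710) or 2 (0.154) of shMed1 #2 or replicate 1 (0.107) or 2 (0.195) of shMed1 #4 left out. Over all genes 26.0% were called in that comparison. Apart from Med1, the named genes outside the set were picked by their changes against NTC or by nearness to Enpp2. Their count can therefore not be set against that share, and marker genes were not part of it.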

How the results depend on the processing

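Across 16 alternatives the log2 difference of Enpp2 ran from -2.92 to -2.67 with shMed1 #2 and from -2.56 to -2.44 with shMed1 #4. In DESeq2 2351 genes were called between the hairpins, against 3540, and 0 of the 7 tested members, against 2 in edgeR, while 2 had an unadjusted p under 0.05, against 3. Leaving out 1 library gave 0 to 2 called members there, the 0 without shMed1 #4 replicate 3, where 3 had an unadjusted p under 0.05. DESeq2 called 4587 and 2599 genes against NTC, where edgeR called 5947 and 3836. Against NTC leaving out 1 library gave 3 to 5 called members with shMed1 #2, with 5290 to 6138 of all genes called. With shMed1 #4 it gave 2 to 3, with 3172 to 3878 of all genes called. Nothing is read from these counts of members. The directions that turned belonged to differences that did not pass the test. With shMed1 #4 Plpp1 stood at -0.008 with library size alone and ran from -0.063 to 0.085 with 1 library left out, and Plpp3 from -0.21 to 0.00. With shMed1 #2 Lpar6 ran from -0.068 to 0.010. Between the hairpins Plpp2 ran from -0.10 to 0.025, Sphk2 from -0.11 to 0.0068, Sgpp1 from -0.0073 to 0.088 and Pcdh19 from -0.43 to 0.27. The causes were not tested. The replicate numbers did not pair the samples (correlations of deviations -0.0413 to 0.0416 over 9 same-numbered pairs), and with the replicate block 5892, 3786 and 3461 genes were called, and 4, 3 and 2 members, the numbers found without it. Counts limit the precision of Lpar2, at 100 to 176 in a library, and of Enpp2 with hairpins, at 57 to 91.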
